A study of Xenopus laevis with 4 samples.

Results

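The genes described here encode the zona pellucida (ZP) glycoproteins of the egg coat. They were picked by gene symbol, as every entry named zp1 to zp4, zpd, zpax or zpx once the homeolog suffix (.L or .S) was dropped. This gene family was chosen with earlier results of these data known. The rule found 8 of 45098 entries, which are zp2.L, zp3.1, zp3.2.L, zp4.L, zp4.S, zp4.2.L, zpd.L and zpax.L. Each sample was a pool of 10 whole X. laevis embryos collected at stage 10.5, the start of gastrulation, and its RNA was sequenced. TKD embryos (2 samples) were injected at the 1-cell stage with stable antisense DNA oligonucleotides against the mRNAs of TBP, TBP2 and TLF, the members of the TATA-binding protein family. Control embryos (2 samples) were injected with water and not with a control oligonucleotide. The paper describes TKD embryos as halted at the onset of gastrulation, without cell involution. The groups thus share a stage label but may differ in developmental progress. Whether differences between them follow from this arrest was not tested. The labels give the dose as 0.8 ng of the mixture, whereas the study's methods give a separate amount for each oligonucleotide. The study asked which transcripts need these initiation factors.

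ZP proteins are secreted by the growing oocyte and assemble through a shared ZP module into the envelope around the egg, which is called the vitelline envelope in frogs. Sperm bind this coat, and enzymes released at fertilization modify it. Their mRNAs are a textbook product of oogenesis. Eggs and stages before the onset of zygotic transcription are not analysed here, so maternal and newly made transcripts cannot be told apart.

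The deposited values are normalized counts, which are reads divided by a size factor for the depth of each library, averaged over the 2 libraries of a group. Whole reads of each library were recovered from these means, amounting to 2523060 and 1414476 reads for TKD and 5222085 and 3436848 reads for control embryos. The libraries of a group are called deeper and shallower below. Which library carries which replicate number is unknown. All 8 entries were recovered in every library. Whether the 2 samples of each group are from different clutches is not stated. P-values therefore cover only the variation between these samples, which may be technical. Of the targeted mRNAs, tbp.S was lower, with 35 and 12 reads in TKD libraries, against 114 and 112 in control libraries (log2 fold change −1.32 ± 0.47 SE, limma-voom adjusted P = 0.0943). Entry tbp.L did not pass (adjusted P = 0.638 from limma-voom), and tbpl2.L, with at most 13 reads, was too low to test. The gene for TLF was not matched by its symbol and is not analysed here. The paper reports depletion by separate assays, a western blot for the TBP protein and quantitative RT-PCR for the remaining targets. Mesoderm, endoderm and epidermal markers of the gastrula were present, with 24 of 24 entries above the read minimum, of which 12 were higher and 5 lower in TKD embryos (threshold 0.1 on the adjusted P-value), against 10.3% and 14.3% of all 17026 genes tested. The lowest adjusted P-values (0.00254 to 0.00287, limma-voom) were those of the epidermal keratin entry krt5.7.S and the mesodermal t.L, which were lower, and of the organizer gene entry gsc.L and the mesendodermal mix1.S, which were higher. The direction of t.L does not stand for mesoderm markers as a whole. The entries eomes.L, eomes.S, not.L, not.S and wnt8a.L were called higher, whereas t.S and wnt8a.S were called lower. Of 16 entries for ovarian follicle cell markers 9 had no read in any library, among them fshr, inha and cyp19a1, and the whole list summed to 53.6 and 34.7 normalized counts in TKD libraries, against 79.6 and 115.9 in control libraries. Of these markers 2 entries had enough reads to be tested, and kitlg.L was lower (log2 fold change −1.20, limma-voom adjusted P = 0.0669). The other, amh.S, had 16 and 1 reads in TKD libraries, against 0 and 23 in control libraries. It did not pass (limma-voom adjusted P = 0.431).

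Summed over the 8 ZP entries, reads were more abundant in TKD than in control embryos. The summed level was 2585 and 2545 normalized counts in TKD libraries, against 1667 and 1681 in control libraries, a ratio of 1.53. The entries did not share evenly in it. The largest difference was that of zp4.L, with a mean of 747.9 in TKD and 282.9 in control embryos, whereas zpax.L had 240.5 and 345.7. In this sum the libraries of a group differed little from each other, with an SD of 28.3 around a mean of 2565 in TKD and of 9.64 around 1674 in control embryos (n = 2 each). Single members could differ more, as given below for zp4.L and zp4.2.L. Of all recovered reads, the members took up 0.109% and 0.109% in TKD libraries, against 0.0630% and 0.0625% in control libraries, a ratio of 1.74. Recovered reads leave out a few abundant genes that could not be solved. These shares and their ratio thus do not rest on full library totals, nor on the size factors behind the ratio of 1.53. As these are whole embryos, more cells holding a transcript and more transcript per cell cannot be told apart.

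The members differed widely in their fold changes. At an adjusted P-value under 0.1, the threshold of the study, 4 of 8 entries were higher in TKD embryos (zp4.L, zpd.L, zp4.S and zp3.1), 0 were lower and 4 did not pass. At an unadjusted P-value under 0.05 the limma-voom counts were 4 higher and 1 lower (zpax.L), and limma-trend called 4 and 0. Over all 17026 genes tested, limma-voom called 10.3% higher and 14.3% lower at the adjusted threshold, and limma-trend called 1560 higher and 2472 lower. For the unadjusted counts, here and below, the share over all genes is not given, so they cannot be weighed against it. The limma-trend counts of the lists below have the background given here. For 6 of the 8 entries each TKD library exceeded each control library, as was the case for 29.9% of all genes tested. For zpax.L each TKD library was below each control library, as was the case for 30.7% of all genes tested, and zp4.2.L overlapped. The members' log2 fold changes had a median of 0.65, against 0.04 over all genes tested.

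**Figure D1:**
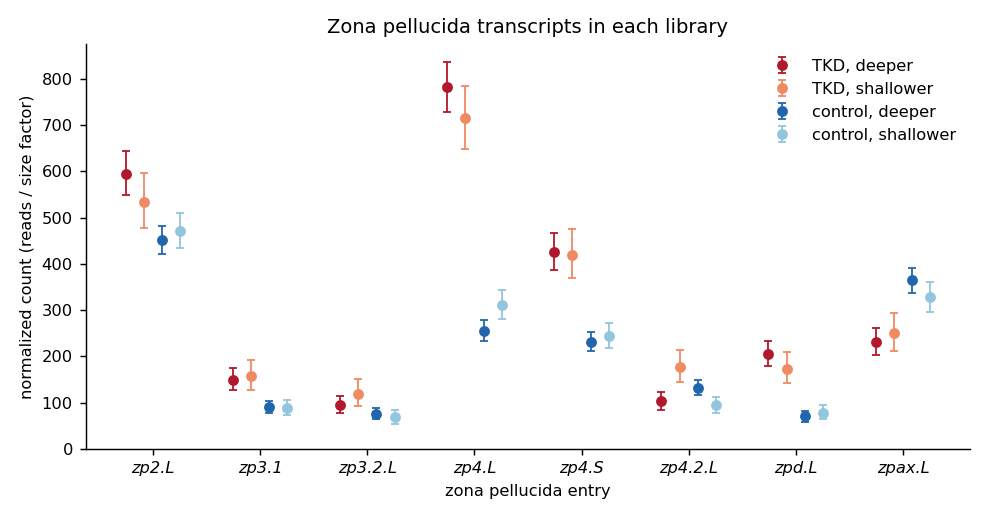
Normalized counts (reads divided by the size factor) of the 8 zona pellucida entries in each of the 4 libraries, with exact 95% Poisson intervals that cover counting error only. For zp4.L the TKD libraries are at 781.4 and 714.4, and the control libraries at 255.1 and 310.8, zpax.L shows the opposite order, and zp4.2.L overlaps.

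The largest fold changes of the members were those of zp4.L and zpd.L, with zp4.L first except when libraries were thinned, the deeper control library was left out or homeologs were added up. The gene zp4 encodes the coat protein also known as ZPB. The entry zp4.L had 781.4 and 714.4 normalized counts in TKD libraries, against 255.1 and 310.8 in control libraries. The groups lay far apart, and the lowest TKD value was above the upper counting limit of 343.0 of the highest control value. The control libraries differed beyond counting error, with a ratio of the deeper to the shallower of 0.82 (exact 95% interval 0.72 to 0.94). The log2 fold change was 1.42 ± 0.20 (SE), a 95% interval of 1.94- to 3.67-fold, with a limma-voom adjusted P-value of 0.00548.

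Its homeolog zp4.S, the copy on the other subgenome of this allotetraploid frog, had 426.0 and 420.0 normalized counts in TKD libraries, against 231.2 and 243.5 in control libraries. The groups were separated here too, and the libraries within each group were close together. The log2 fold change was 0.84 ± 0.19 (SE), with a limma-voom adjusted P-value of 0.0266. It passed under each unpaired alternative except when the deeper TKD library was left out (log2 fold change 0.83). With homeologs added up the sum of zp4.L and zp4.S was tested, so that alternative does not speak for zp4.S alone.

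The share of zp4.L in the homeolog pair was higher in TKD embryos. Of the reads of the pair, zp4.L made up 64.7% (exact 95% binomial interval 62.0% to 67.3%) and 63.0% (59.2% to 66.6%) in TKD libraries. It made up 52.5% (49.2% to 55.7%) and 56.1% (52.3% to 59.8%) in control libraries. Both TKD shares lay above both control shares, by 9.58 percentage points on average, although the intervals of the shallower libraries of the groups just met. This share does not depend on the size factors. With 2 libraries per group an exact two-sided permutation test cannot go below P = 0.333, and no other test of the difference between the homeologs was run. Reads from stretches that are identical in both homeologs may have been assigned to either.

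For a further entry, zp4.2.L, no change was detectable at this depth and spread. It had 102.5 and 176.9 normalized counts in TKD libraries, against 130.8 and 94.0 in control libraries. The groups overlapped. The libraries within each group differed beyond counting error, with a ratio of the deeper to the shallower of 0.58 (exact 95% interval 0.44 to 0.76) in TKD and of 1.39 (1.12 to 1.74) in control embryos. Its log2 fold change was 0.19 ± 0.32 (SE, limma-voom adjusted P = 0.728), an interval of 0.68- to 1.92-fold that includes the change of zp4.S, and it turned negative when the shallower TKD (−0.14) or the shallower control library (−0.02) was left out.

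The entry zpd.L encodes ZPD, a coat protein known from amphibians and birds. It had 205.0 and 173.6 normalized counts in TKD libraries, against 70.0 and 78.3 in control libraries. Both TKD values were more than the upper counting limit of 95.2 of the higher control value. The log2 fold change of 1.38 ± 0.25 (SE) was close to that of zp4.L, with an interval of 1.75- to 3.86-fold and a limma-voom adjusted P-value of 0.0120. The call held under each unpaired alternative, with adjusted P-values from 0.00155 to 0.0667 from limma.

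ZP3, also called ZPC, is the core coat protein that is found in all vertebrate classes. The entry zp3.1 had 149.5 and 157.1 normalized counts in TKD libraries, against 89.8 and 88.5 in control libraries. The groups were clearly separated, with a log2 fold change of 0.78 ± 0.24 (SE). Its limma-voom adjusted P-value was 0.0646, and it no longer passed when any 1 library was left out (0.116 to 0.199), at a threshold of 0.05 or when all genes with at least 1 read were tested (0.107). The second ZP3 entry, zp3.2.L, had 94.0 and 119.1 normalized counts in TKD libraries, against 75.6 and 68.1 in control libraries. The TKD libraries were the higher ones, but the log2 fold change of 0.52 ± 0.28 (SE) did not pass (limma-voom adjusted P = 0.233), with an interval of 0.92- to 2.23-fold.

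ZP2, also called ZPA, is the ligand of the X. laevis coat to which sperm bind. Of the members, zp2.L had the most reads, 2446 over the 4 libraries. It had 595.2 and 534.1 normalized counts in TKD libraries, against 450.8 and 470.5 in control libraries. The groups did not overlap, but the step between them was small, with a log2 fold change of 0.30 ± 0.19 (SE, limma-voom adjusted P = 0.311, not passed). The 95% interval ran from 0.91- to 1.66-fold, so a change of the size seen for zp4.L or zpd.L lay outside it.

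The entry zpax.L was the one member for which both TKD libraries were below both control libraries. ZPAX is a coat protein related to ZP2 that is present in fish, amphibians and birds. It had 231.3 and 249.7 normalized counts in TKD libraries, against 364.1 and 327.3 in control libraries. The TKD mean was 69.6% of the control mean. The log2 fold change was −0.53 ± 0.21 (SE), with an unadjusted P-value of 0.0326 and an adjusted P-value of 0.119 from limma-voom, so it did not pass. Among the unpaired alternatives it passed when the read minimum for testing was raised to 50 (adjusted P = 0.0927 from limma-voom) and when libraries were thinned to equal depth (0.0996).

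**Figure D2:**
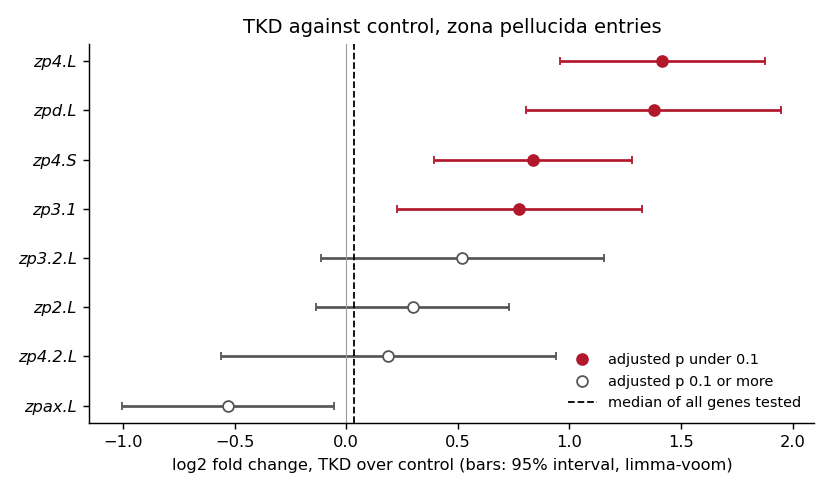
Log2 fold change of TKD over control embryos for the 8 zona pellucida entries, with 95% intervals from limma-voom. Filled points have an adjusted P-value under 0.1, and the dashed line is the median of all 17026 genes tested, 0.04. The values run from −0.53 for zpax.L to 1.42 for zp4.L.

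The make-up of the ZP reads, which is free of the scaling between libraries, differed accordingly. Of the reads of the 8 entries, zp4.L made up 30.2% and 28.1% in TKD libraries, against 15.3% and 18.5% in control libraries. It had the most reads of the members in both TKD libraries, whereas zp2.L had the most in both control libraries. The share of zp2.L was 23.0% and 21.0% in TKD libraries, against 27.0% and 28.0% in control libraries. The largest loss of share was that of zpax.L, with 8.95% and 9.81% in TKD libraries, against 21.8% and 19.5% in control libraries. The share of zpd.L was 7.93% and 6.82% in TKD libraries, against at most 4.66% in control libraries. Shares of zp3.2.L and zp4.2.L overlapped between the groups. Shares add up to the whole, so a gain of zp4.L lowers those of the others.

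Ratios of zpax.L, zp4.L and zpd.L to zp2.L restate these differences without this constraint. Of the members, zp4.L and zpd.L had the largest fold changes and zpax.L the only negative log2 fold change, so separate groups were likely beforehand. Ratios of the remaining members to zp2.L are not given. There were 0.39 and 0.47 reads of zpax.L for each read of zp2.L in TKD libraries, against 0.81 and 0.70 in control libraries. For each read of zp2.L there were 1.31 and 1.34 reads of zp4.L in TKD libraries, against 0.57 and 0.66 in control libraries. The ratio of zpd.L to zp2.L was 0.34 and 0.33 in TKD libraries, against 0.16 and 0.17 in control libraries. In each of these ratios the groups were separate. The differences between members were not tested. Since reads also depend on transcript length, which is not used here, these ratios say nothing of which transcript is the more abundant.

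**Figure D3:**
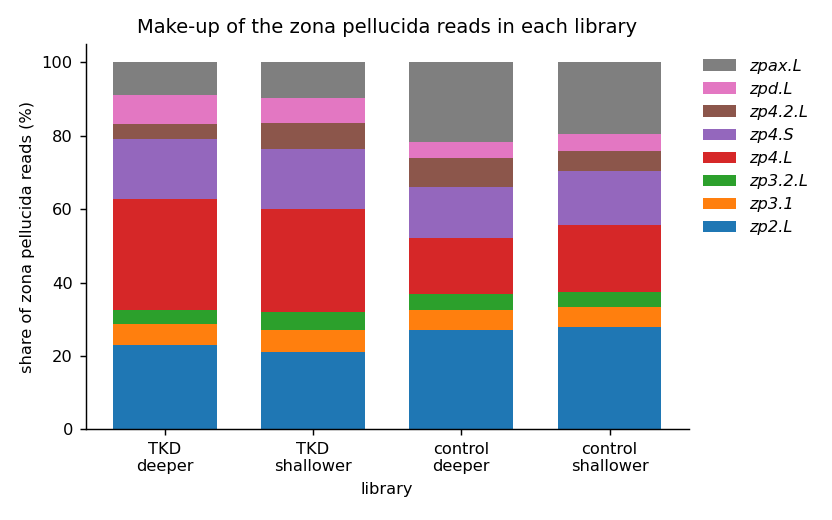
Share of each member in the summed reads of the 8 zona pellucida entries (%), by library. The share of zp4.L is 30.2% and 28.1% in TKD and 15.3% and 18.5% in control libraries, and that of zpax.L is 8.95% and 9.81% in TKD and 21.8% and 19.5% in control libraries.

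Of a list of 49 gene symbols for other transcripts made by oocytes, 17 were matched. Whether these genes are also transcribed in the gastrula was not tested. Of their entries, 13 of 28 tested were higher, 0 were lower and 15 did not pass, against 10.3% higher and 14.3% lower over all genes tested. They had a median log2 fold change of 0.64, against 0.65 for the ZP entries and 0.04 over all genes tested. At an unadjusted P-value under 0.05 these limma-voom counts were also 13 and 0, as they were with limma-trend. The log2 fold changes ran from −1.26 to 2.70. For 15 entries each TKD library exceeded each control library, for 3 each was below, and 10 overlapped. Over all genes tested 29.9% were above and 30.7% below in this way. The lowest adjusted P-values were those of btg4, which in the mouse is a regulator of maternal mRNA decay, and of ccna1, the A-type cyclin of eggs. The entry btg4.L had 185.2 and 215.0 normalized counts in TKD libraries, against 29.9 and 30.5 in control libraries, and the log2 fold changes were 2.70 for btg4.L and 1.87 for btg4.S (limma-voom adjusted P = 0.00314 and 0.00935). Those of ccna1.L and ccna1.S were 1.86 and 1.53. The growth factor gene gdf9, which is also on this list, did not pass with either homeolog, at log2 fold changes of 0.45 (gdf9.L) and 0.17 (gdf9.S) (limma-voom adjusted P = 0.176 and 0.616).

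Of 11 gene symbols for regulators of oocyte transcription, 5 were matched. Of their 7 entries 3 had enough reads to be tested, and the knockdown target tbpl2.L was not among them. Of the 3, 1 was higher and 0 were lower by limma-voom, against 10.3% higher and 14.3% lower over all genes tested. With limma-trend the counts were 1 and 0, against 1560 higher and 2472 lower of all 17026 genes tested. At an unadjusted limma-voom P-value under 0.05 they were 3 and 0. Without the share over all genes, this last count cannot be read as an excess. The entry called was figla.L, whose product switches on zp genes in the mouse oocyte. It had 36 and 30 reads in TKD libraries, against 19 and 17 reads in control libraries. This corresponds to 33.9 and 49.6 normalized counts in TKD, against 9.63 and 13.3 in control libraries. The groups were separate, with a log2 fold change of 1.82 ± 0.49 (SE, limma-voom adjusted P = 0.0450). With so few reads the value is less certain than those of the ZP entries. The other entries tested, gtf2a1l.L, for a TFIIA subunit of germ cells, and taf4b.S, for a TFIID subunit with a role in the gonads, did not pass at log2 fold changes of 1.38 and 0.66 (limma-voom adjusted P = 0.116 and 0.118).

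From a list of 26 gene symbols for envelope processing, cortical granules and hatching, 9 were matched. Of their 16 entries 9 could be tested, so the counts cover only a part of the list. The entries tested belong to furin, pcsk5, pcsk6, pcsk7, ovch1 and sned1, whereas all entries of itln1, cpn1 and mmp7 had too few reads. Of the 9, 1 was higher, 2 were lower and 6 did not pass, which is near the 10.3% and 14.3% of all genes tested. Their median log2 fold change was −0.13, and limma-trend called 0 higher and 1 lower. Furin, a proprotein convertase of the kind that trims ZP proteins during secretion, had 105.3 and 104.2 normalized counts of furin.L in TKD libraries, against 193.7 and 234.9 in control libraries (log2 fold change −1.01, limma-voom adjusted P = 0.0345). Its homeolog furin.S did not pass (log2 fold change 0.30, limma-voom adjusted P = 0.530). The related convertase entry pcsk7.S had a log2 fold change of 1.17 (limma-voom adjusted P = 0.0786). The extracellular matrix gene entry sned1.L had 0 reads in both TKD libraries and 14 and 13 reads in the control libraries (limma-voom adjusted P = 0.0456).

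Of 16 gene symbols for egg plasma membrane proteins, 5 were matched. By limma-voom, 1 of 5 entries tested was lower, 0 were higher and 4 did not pass. This is near the 14.3% lower and 10.3% higher of all genes tested. The counts were also 0 higher and 1 lower at an unadjusted P-value under 0.05 and with limma-trend. The uroplakin entry upk3b.L had 50.8 and 33.1 normalized counts in TKD libraries, against 119.7 and 111.2 in control libraries (log2 fold change −1.41, limma-voom adjusted P = 0.0313). Uroplakin III is a protein of the X. laevis egg membrane with a part in fertilization, and its entry upk3a.L had 648.8 and 562.2 normalized counts in TKD libraries, against 810.3 and 817.4 in control libraries. Its log2 fold change was −0.42 (limma-voom adjusted P = 0.162), and it did not pass. A further list of 18 symbols was meant for proteins that carry a ZP module but form no egg coat, and 5 were matched. Whether each product, such as those of itgbl1 and pkhd1, carries this module was not checked. Of the 8 entries 3 had no read in any library. Only 1 reached the read minimum, the TGF-beta co-receptor gene entry tgfbr3.S (log2 fold change 0.74, limma-voom adjusted P = 0.255).

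**Figure D4:**
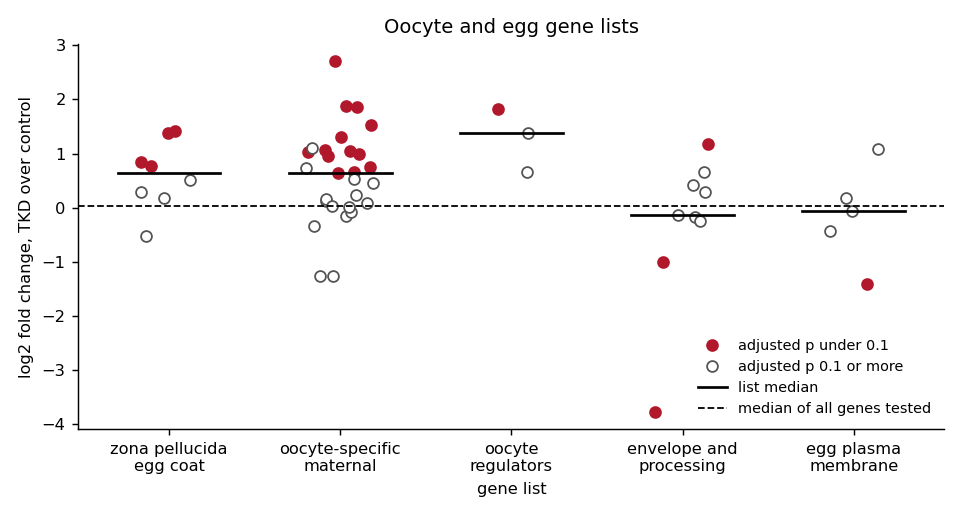
Log2 fold change of TKD over control embryos for each entry tested of the zona pellucida genes and of 4 other oocyte and egg gene lists. Filled points have an adjusted P-value under 0.1 from limma-voom, bars are list medians and the dashed line is the median of all genes tested. Medians are 0.65 for the zona pellucida entries, 0.64 for the list labelled oocyte-specific and 1.38 for oocyte regulators (3 entries). The label names the list, and whether its genes are limited to oocytes was not tested. They are −0.13 for envelope and processing genes and −0.05 for egg plasma membrane genes.

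Profiles over the 4 libraries were compared with that of zp2.L for 4726 genes with at least 100 normalized counts in every library. The measure was the Euclidean distance of log2 values centred on each gene's mean. Entries whose name starts with LOC or Xelaev are counted in the 4726 but were left out of the choice. Of the others, the most like zp2.L were rev3l.L, arl10b.S, irs4.S, narfl.S and dgcr14.S, at distances of 0.03 to 0.06. Their log2 fold changes lay between 0.29 and 0.34, and none passed the test. Fold changes near that of zp2.L follow from this choice by smallest distance. The members with such counts, which were not chosen by distance, lay at 0.55 (zp4.S), 0.85 (zpax.L) and 1.13 (zp4.L). Without a typical distance over all candidates, these values do not show whether the members are more or less like zp2.L than other genes.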

How the data were processed

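The authors sequenced ribosomal RNA-depleted libraries with reads of 75 nt, mapped them with STAR to assembly JGI 9.1 allowing 1 mismatch, and compared groups with DEseq. Not given in the sources used here were the version of each tool and the way reads were counted. As deposited, the signal columns hold the mean of each group, in reads scaled by a size factor per library. The table also holds the authors' log2 fold changes, P-values and adjusted P-values, which were not used.

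Each mean combines 2 whole read numbers, each with its own step size, from which size factors (1.06 and 0.605 for TKD, 1.97 and 1.28 for control) and reads were solved. A single solution was found for 45094 of 45098 genes in TKD and 45088 in control embryos, holding 94.6% and 89.2% of the signal. The unsolved genes are abundant (means of at least 9255), and none is a member. Recovery and fit were checked on simulated data.

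The fit took in genes reaching 10 reads in 2 or more libraries and was done with limma-voom (limma 3.58.1, R 4.3.3), scaled by the size factors, with Benjamini-Hochberg adjustment over 17026 genes. A log2 fold change is TKD over control. Alternatives were scaling by library totals or upper quartile, other read minimums, limma-trend on log2(normalized count + 1), thinning, a threshold of 0.05, homeologs added up, pseudocounts of 1 and 10 on the means, each library left out, and both possible pairings of libraries as a block. Intervals on reads cover counting error only. Library totals are those of the recovered reads, without the unsolved genes.

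Members and lists were chosen with earlier results of these data known. Named are all members and the knockdown targets. From each other list, up to 4 called entries with the lowest adjusted P are named (without any, the one with most reads). Also named are the 5 entries most like the member with most reads, leaving out names that start with LOC or Xelaev. The entries of gdf9, upk3a.L, gtf2a1l.L and taf4b.S were added after their values were seen. So were further entries of eomes, not, t and wnt8a, and tbp-family and homeolog entries that did not pass. Follicle genes without reads and amh.S were picked likewise. RefSeq names (Xenopus_laevis_v10.1) matched 6 of 8 members; no coordinates, lengths or sequences from it are printed, and reads of different members, where set side by side, are not corrected for transcript length. The rest was done in Python 3.11.15 with SciPy 1.17.1, pandas 2.3.3 and NumPy 2.4.6, and plots with matplotlib 3.10.9.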

Additional observations from a re-analysis of the deposited data

How the results depend on the processing

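The recovered libraries carry no replicate number, so the labels give no pairing. Over 17026 genes, the difference between the deeper and the shallower TKD library correlated with that between the control libraries (Pearson's r = −0.49 across genes, which are not independent). Both possible pairings were fitted with a replicate block after the data were seen. Pairing deeper with deeper libraries gave 1646 called genes and 2 called ZP entries, both higher. Pairing deeper with shallower gave 7383 called genes and 6 called ZP entries. Of these, 5 were higher, zp3.2.L among them, and 1 was lower, zpax.L (limma-voom adjusted P = 0.0171). The 2 libraries per group limit what could be detected. Fewer ZP entries than the 4 given above were called when any 1 library was left out. Under the other settings without a block 3 to 5 were called, and where 5 were called 1 was lower (zpax.L). With homeologs added up the entries numbered 7 in place of 8. Genes tested numbered between 11598 and 26695 under these settings. The share called is not given for each, so these counts cannot be weighed against it. With the LOC394444 entries included 6 of 10 were called. All genes called numbered 4187, between 2599 and 4085 when a library was left out and 2532 at a threshold of 0.05. With library totals the median of all genes tested moved to 0.21, called genes split into 2750 higher and 1983 lower in place of 1749 and 2438, and the ZP median was 0.82, which is 0.61 above that of all genes, as with the size factors. The ZP median was 0.52 with homeologs added up, 0.81 with the LOC394444 entries included (chosen after the data were seen) and between 0.56 and 0.77 without each library, against 0.65. The ratio of summed ZP reads was 1.74 with library totals, 1.55 with the upper quartile and 1.66 with the LOC394444 entries. For zp4.2.L the log2 fold change lay between −0.14 and 0.65 without each library. No other member changed sign. With homeologs added up, zp4.L and zp4.S were tested only as a sum, whose result is counted for each of them in what follows. Of 12 settings without a block zp3.1 passed in 6, zp4.S in 11 and zpax.L in 2, and zp4.L and zpd.L passed under each.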

Other observations

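The ZP3-type coat proteins may be represented beyond the 8 entries. In the RefSeq gene names, the entry XB5888885.S carries the older names gp41, gp43, xlzpc and LOC394444.S, and the deposited table holds LOC394444.L and LOC394444.1, of which neither is that homeolog by name. They were looked up after the values of the members had been seen. The entry LOC394444.L had 521.9 and 697.8 normalized counts in TKD libraries, against 298.2 and 286.6 in control libraries (log2 fold change 1.03 ± 0.21 SE, limma-voom adjusted P = 0.0186). LOC394444.1 had 258.6 and 256.3 normalized counts in TKD libraries, against 127.3 and 81.4 in control libraries (log2 fold change 1.30 ± 0.27 SE, limma-voom adjusted P = 0.0186). In both the groups were separate.

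The nearest protein-coding neighbours of the members in the RefSeq gene order gave few values. Of 12 neighbours of the 6 matched members, 6 were found in the table by name and 2 had enough reads to be tested. Beside zpax.L lies msgn1.L, a gene of the presomitic mesoderm, with 1 and 12 reads in TKD libraries, against 136 and 81 in control libraries (limma-voom adjusted P = 0.0336). The TKD libraries were both far lower but differed between themselves, at a fitted log2 fold change of −4.06. Beside zp4.L lies sqstm1.L, which did not pass at a log2 fold change of −0.62 (limma-voom adjusted P = 0.272).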
